A study of Rattus norvegicus with 12 samples.

Results

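Cited2, Irf2bp2, Ifrd1, Dyrk3 and Vps37b are 5 rat genes whose expression ratios climbed late after the neuropeptide PACAP38 was added to PC12 cells, a line derived from a rat adrenal pheochromocytoma. The data described are those of every non-control probe that the array files name for 1 of these genes, together with an unnamed probe, A_44_P578452, that lies beside Vps37b on chromosome 12. That gives 11 of the 41012 non-control probes, with 3 for Cited2, 2 each for Irf2bp2, Ifrd1 and Vps37b, 1 for Dyrk3 and the unnamed one. The genes were chosen by their measured PACAP38 over control ratios, so all their ratios below describe the choice and were not tested.

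PC12 cells in medium with fetal bovine and horse serum received PACAP38 at 1e-07 M, and RNA was taken at 6 times, namely 5, 10 and 15 min and then 30, 60 and 120 min, each with a control RNA labelled with the same time. The RNA was pooled (n = 6) and hybridised to 12 Agilent whole rat genome arrays of 2 colours. Each time point has 2 arrays that hold the same pair of pools with Cy3 and Cy5 exchanged, so it is 1 replicate without a measure of spread between cultures. Below, the Cy5 array is the one on which PACAP38 RNA carried Cy5, and the ratio of a time point is the geometric mean of PACAP38 over control on both arrays. Series of 6 values are given in the order of these times.

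PACAP38 acts mainly through the receptor PAC1, which raises cyclic AMP and activates the MAP kinase ERK. Transcription factors that are already present in the cell then switch on immediate early genes, whose products, together with the same signals, feed a later wave of genes. PC12 cells grow neurites in response to PACAP38 or nerve growth factor, which has made them a standard system for such gene waves.

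Cited2 is a transcriptional co-regulator that binds the coactivators CBP and p300 and competes there with hypoxia-inducible factor. Irf2bp2 is a co-repressor first found with the interferon regulatory factor Irf2. Ifrd1, also known as PC4 and TIS7, was cloned as a gene induced by nerve growth factor in PC12 cells and by a phorbol ester in fibroblasts, and its protein works with Sin3 and histone deacetylases. Dyrk3 is a dual-specificity kinase that dissolves protein and RNA condensates. Vps37b is a subunit of ESCRT-I, a complex that sorts ubiquitinated membrane proteins into multivesicular bodies.

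Each ratio is a statement about a 60-base probe, so probes of 4 of the genes are given here, read 5′ to 3′ and without any marked bases. They are the brightest probes A_44_P1027846 of Cited2, A_44_P203106 of Ifrd1 and A_43_P22478 of Dyrk3, and for Vps37b the probe A_44_P442966, which starts earlier in the transcript than the brightest one. Each holds at least 1 reading frame without a stop codon, and no annotation of coding regions was used.
Cited2: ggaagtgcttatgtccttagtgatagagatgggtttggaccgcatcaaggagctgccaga
Ifrd1: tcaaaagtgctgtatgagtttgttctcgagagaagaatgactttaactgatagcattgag
Dyrk3: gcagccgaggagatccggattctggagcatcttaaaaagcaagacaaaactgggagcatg
Vps37b: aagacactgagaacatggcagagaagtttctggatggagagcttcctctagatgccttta

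By the array files, which use rat build rn4, the Cited2 probe lies at chr1:12722880-12722939 on the plus strand and starts at base 905 of the transcript NM_053698. The Dyrk3 probe lies at chr13:44079157-44079216 on the minus strand and starts at base 862 of NM_001024767. The Vps37b probe starts at base 396 of NM_001105928, and its 60 bases span 922 bases of the genome, chr12:33710090-33711011 on the plus strand, so that it crosses a splice junction by these coordinates. The files map no probe of Ifrd1 or Irf2bp2 to the genome. The Ifrd1 probe starts at base 472 of NM_019242.

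The promoters of Vps37b and Ifrd1 are shown because these 2 were the members with a cyclic AMP response element (CRE) sequence close to the start. The windows hold the 250 bases before the transcription start, from RefSeq on build GRCr8, at chr12:38220723-38220972 on the plus strand for Vps37b and at chr6:63016066-63016315 on the minus strand for Ifrd1. Capitals mark the full CRE, its core and the Egr site, on either strand.
Vps37b: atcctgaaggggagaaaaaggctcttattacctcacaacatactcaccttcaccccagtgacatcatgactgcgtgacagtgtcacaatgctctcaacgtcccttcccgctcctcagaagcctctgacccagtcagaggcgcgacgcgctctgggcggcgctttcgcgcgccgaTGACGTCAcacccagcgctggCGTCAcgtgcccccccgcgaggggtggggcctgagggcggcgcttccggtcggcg
Ifrd1: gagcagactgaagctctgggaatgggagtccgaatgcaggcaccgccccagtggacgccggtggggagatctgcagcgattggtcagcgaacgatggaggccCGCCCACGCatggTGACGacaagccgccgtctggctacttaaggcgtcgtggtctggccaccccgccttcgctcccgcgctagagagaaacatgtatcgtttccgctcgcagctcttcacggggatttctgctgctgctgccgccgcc

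The full CRE, TGACGTCA, is its own reverse complement and stood 76 to 69 bases before the start of Vps37b. It was found in 1 of the 5 member promoters and in 1.70% of the 27457 rat promoters of the same length. The core, TGACG, which is also contained in the full CRE, was searched on both strands and stood in Vps37b and Ifrd1, 2 of 5 members against 18.96% of all promoters. In Vps37b a further core lay 55 to 51 bases before the start, and in Ifrd1 the core lay 135 to 131 bases before it. The Egr site, GCGNGGGCG, searched on both strands, was present in Ifrd1 from 148 to 140 bases before the start and in 4.53% of all promoters. The AP-1 sequence TGANTCA and the sequence TATAAA, each searched on both strands, were in none of the 5 windows and in 6.36% and 13.1% of all promoters. GC content of the member windows ran from 62.4% in Dyrk3 to 71.2% in Irf2bp2, against a median of 52% over all promoters. A match in letters is a description of the window and not a bound site.

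Measured against the rule that a probe is counted as higher when its ratio is at least 2 and the scanner software's spot p-value is below 0.01 on both arrays, the member probes went from none counted to all counted by 60 min. In the order of the 6 times, 0, 1, 1, 4, 11 and 10 of the 11 probes were counted. Over all measured probes the shares counted as higher were 0%, 0.158%, 0.214%, 0.594%, 1.79% and 4.24%. The members were picked from these same ratios, so nothing is read from the distance between their count and these shares. No member probe was counted as lower at any time, where the shares over all measured probes were 0%, 0%, 0.0635%, 0.245%, 0.782% and 3.37%. In RNA from a whole culture, a change in RNA per cell and a change in the number of cells that hold it cannot be told apart.

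The word steady holds for some members only. By the brightest probe of each gene, the mean ratio rose at each of the 5 steps between time points in 2 of 5 genes, Ifrd1 and Dyrk3, a pattern that 1.31% of 15970 probes had. Those are the probes with both RNAs well above background, on at least 1 array each, at all 6 times. From 15 min on it rose at each step in 4 of 5 genes, all but Irf2bp2, and in 11.6% of those probes. Among the 531 of them that were counted as higher at 120 min, out of 788 counted in all, 60.3% had that pattern from 15 min on and 12.6% had it over all 5 steps. Their highest ratio fell at 120 min in 92.3% of them, at 60 min in 6.78% and at 30 min in 0.942%, against 120 min for 4 of the 5 genes and 60 min for Irf2bp2.

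**Figure D1:**
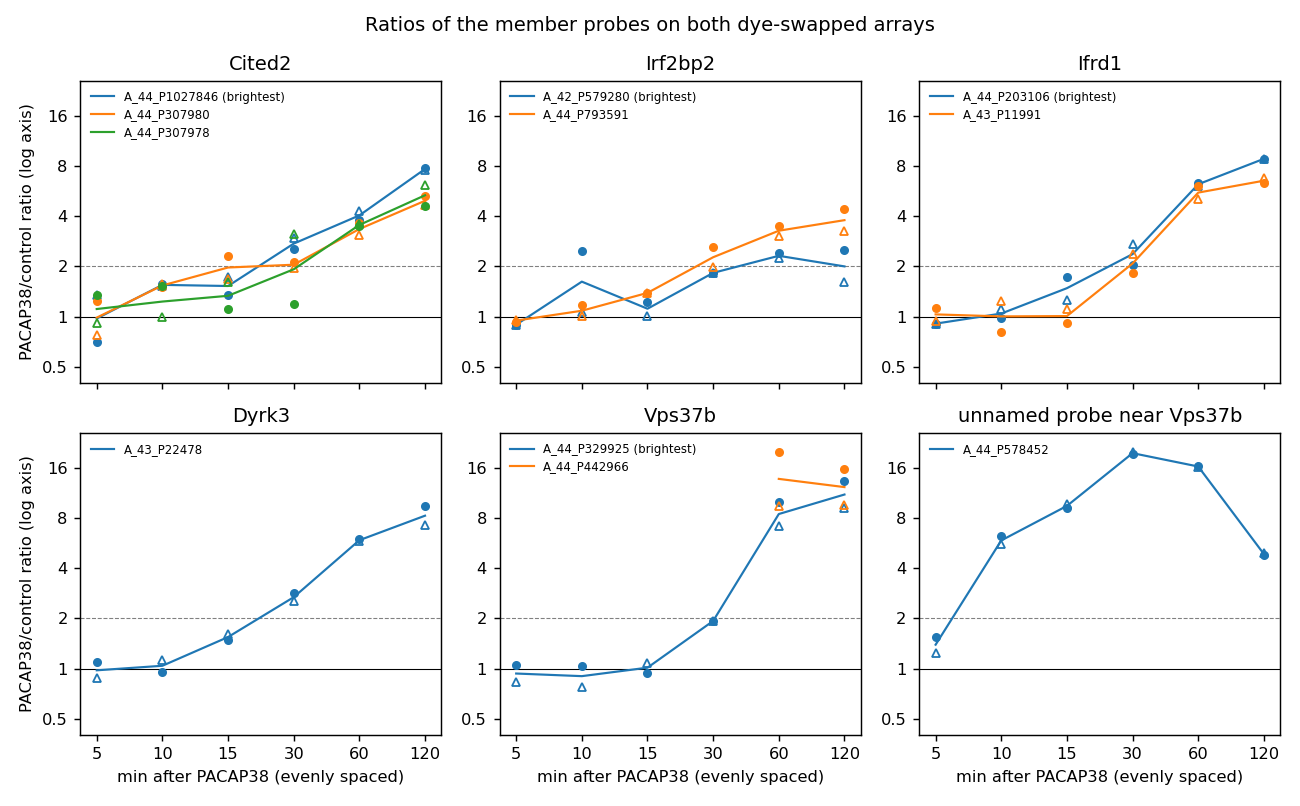
PACAP38 over control (log axis, dashed line at 2) against minutes after PACAP38 for each member probe. Circles are the array with PACAP38 in Cy5, triangles the array with PACAP38 in Cy3 and lines their geometric mean; points without a signal well above background in any channel are left out. The means of the 5 genes stay below 2 up to 15 min and are higher at 60 min, while the unnamed probe is at 5.89 by 10 min and falls from 19.7 at 30 min to 4.87 at 120 min.

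Among the nuclear regulators, Cited2 climbed over several steps from 30 min on. On its brightest probe, A_44_P1027846, the Cy5 arrays gave ratios of 0.699, 1.57, 1.35, 2.55, 3.81 and 7.85. The Cy3 arrays gave 1.35, 1.53, 1.72, 2.95, 4.31 and 7.55. The 5 min arrays lie on either side of 1, the 10 and 15 min values overlap, and from 30 min on each pair lies wholly above the pair before it. The last 3 mean ratios were 2.74, 4.05 and 7.70, and the probe was counted as higher at all 3.

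The other Cited2 probes read the 3′ part of the same transcript, from base 1403 for A_44_P307980 and from base 1593 for A_44_P307978. A_44_P307980 had ratios of 5.28 and 4.66 on the Cy5 and Cy3 arrays at 120 min, with a mean of 4.96. A_44_P307978 had 4.64 and 6.18, with a mean of 5.35. Both were counted as higher at 60 and 120 min and both lie below the brightest probe at 120 min. With normexp and loess A_44_P307978 had 1.46 at 60 min and 1.62 at 120 min, and with median centring 1.45 and 1.55. All of these are below the limit of 2. A_44_P307980 had 2.80 with loess and 2.44 with median centring at 120 min. Up to 30 min the control signal of A_44_P307978 was well above background on at most 1 of 2 arrays, and its ratios of 1.23 at 10 min and 1.33 at 15 min are lower bounds.

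Irf2bp2 had the lowest ratio of the 5 genes at 120 min, and its 2 probes gave unlike courses. The brightest probe, A_42_P579280, starts at base 3873 of its transcript and gave 0.893, 2.48, 1.22, 1.83, 2.40 and 2.50 on the Cy5 arrays. On the Cy3 arrays it gave 0.893, 1.06, 1.01, 1.83, 2.24 and 1.60. The arrays of 10 min and of 120 min disagree, the highest mean is 2.32 at 60 min, and the mean of 2.001 at 120 min was not counted because of the Cy3 array. On the Cy5 array of 10 min both signals of this spot were low, with 589 for the control and 1461 for PACAP38, against 3214 and 3399 on the Cy3 array.

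The other probe of Irf2bp2, A_44_P793591, climbed at each of the 5 steps on both arrays. Its ratios were 0.931, 1.17, 1.39, 2.60, 3.50 and 4.43 on the Cy5 arrays and 0.959, 1.01, 1.38, 1.98, 3.07 and 3.25 on the Cy3 arrays. It missed the count at 30 min by the Cy3 array and was counted at 60 and 120 min, where the pairs overlap. At 120 min the mean was 3.79 on this probe and 2.001 on the brightest one, and the pairs of arrays do not overlap.

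Ifrd1 was near 1 until 10 min and then climbed most between 30 and 60 min. A_44_P203106 read 0.907, 0.973, 1.74, 2.05, 6.37 and 8.88 on the Cy5 arrays and 0.905, 1.12, 1.26, 2.74, 6.11 and 8.85 on the Cy3 arrays. Every pair lies above the one before it, and the probe was counted from 30 min on. With normexp and loess or median centring its ratio at 30 min was 1.25 or 1.24 and was not counted, and that of Dyrk3, 1.43 or 1.41, was not counted either. The second probe, A_43_P11991, starts at base 252 and had means of 1.03, 1.00, 1.01, 2.08, 5.55 and 6.55. Both probes of Ifrd1 were counted at 60 and 120 min, and they differ at 15 min, where the second probe had 0.915 and 1.11 on its arrays. With normexp the second probe had 1.95 at 60 min under both loess and median centring, below the limit of 2. At 120 min it had 2.20 and 2.01.

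Dyrk3, the kinase, followed nearly the same course on its single probe. A_43_P22478 read 1.09, 0.957, 1.48, 2.84, 5.97 and 9.49 on the Cy5 arrays and 0.872, 1.13, 1.61, 2.53, 5.84 and 7.24 on the Cy3 arrays. The 5 and 10 min pairs overlap and each later pair lies above the one before it. The mean was 8.29 at 120 min.

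Vps37b, the ESCRT-I subunit, had the highest ratio of the 5 genes at 60 and 120 min and was still at 1.01 at 15 min. Its brightest probe, A_44_P329925, lies at chr12:33711691-33711750 on rn4 and starts at base 1135. It read 1.05, 1.04, 0.944, 1.93, 9.97 and 13.4 on the Cy5 arrays and 0.832, 0.778, 1.09, 1.94, 7.22 and 9.23 on the Cy3 arrays. The first 3 pairs overlap, 30 min lies above them, and the pairs of 60 and 120 min overlap at means of 8.48 and 11.1. The other probe, A_44_P442966, had both its signals at background until 30 min. At 60 and 120 min it gave 13.8 and 12.3 with the control well above background on 1 of 2 arrays. With normexp these were 1.83 and 1.77 with loess and 1.84 and 1.70 with median centring, below the limit of 2.

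How early each gene had moved can be put as the share of its log2 ratio at 120 min that was already there at 30 min, on the brightest probe. That share was 49.4% for Cited2, 46.7% for Dyrk3, 39.6% for Ifrd1 and 27.4% for Vps37b. For Irf2bp2 it was 87.1%, with the end value not counted, and 61.5% on its other probe. With normexp and loess the ratios at 30 min were 1.25 for Ifrd1, 1.43 for Dyrk3 and 1.41 for Vps37b, so their shares were smaller. The step from 30 to 60 min multiplied the ratio of Vps37b by 4.39, that of Ifrd1 by 2.63, that of Dyrk3 by 2.20, that of Cited2 by 1.48 and that of Irf2bp2 by 1.27. The arrays of 5 and 10 min share a slide, as do those of 15 and 30 min and those of 60 and 120 min, so the step from 30 to 60 min and that from 10 to 15 min each cross slides, and there time and slide cannot be told apart.

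Steps inside a slide are free of that limit. From 60 to 120 min the Cited2 ratio was multiplied by 2.06 on the Cy5 arrays and by 1.75 on the Cy3 arrays. The same step was 1.59 and 1.24 for Dyrk3, 1.39 and 1.45 for Ifrd1, and 1.34 and 1.28 for Vps37b. On these brightest probes it was above 1 on both dyes in the 4 genes, while the Vps37b probe A_44_P442966 gave 0.788 and 1.01. With median centring the ratio at 120 min was below that at 60 min for Ifrd1, at 2.83 against 3.08, and for Vps37b, at 5.97 against 6.07. For Irf2bp2 the step was 1.04 and 0.716 on the brightest probe and 1.26 and 1.06 on the other one, whose mean ratio with median centring was 2.90 at 60 min and 2.55 at 120 min. From 15 to 30 min the ratio was multiplied on the Cy5 and Cy3 arrays by 2.04 and 1.78 for Vps37b, by 1.92 and 1.57 for Dyrk3, by 1.88 and 1.71 for Cited2, by 1.18 and 2.17 for Ifrd1, and by 1.49 and 1.81 for Irf2bp2. By their brightest probes, all 5 genes were thus higher at 30 than at 15 min within 1 slide, on both dyes, while the Cited2 probe A_44_P307980 gave 0.930 and 1.16.

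In 4 of the 5 genes the PACAP38 signal changed far more than the control signal, all by their brightest probes. Each array's ratios were kept, so this contrast restates the ratios by which the genes were chosen. After the mean intensities of the arrays were brought to a common distribution, with each array's ratios kept, the PACAP38 level at 120 min over that at 5 min was 18.5 for Vps37b, 12.8 for Dyrk3, 9.06 for Cited2, 7.37 for Ifrd1 and 1.74 for Irf2bp2 (3.46 on its other probe). The control level changed by 1.55 for Vps37b, 1.51 for Dyrk3, 1.14 for Cited2, 0.753 for Ifrd1 and 0.777 for Irf2bp2. Over the 16031 measured probes the medians were 0.957 for PACAP38 and 0.975 for the control, and 95% of control values lay between 0.666 and 1.92, a range that holds all 5 genes. The arrays of 5 and 120 min lie on different slides, so time and slide cannot be told apart in these levels. The control of Vps37b was 1.70 times higher at 60 than at 30 min, also across slides. That of Irf2bp2 varied 2.69-fold between its highest time, 5 min, and its lowest, 10 min.

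**Figure D2:**
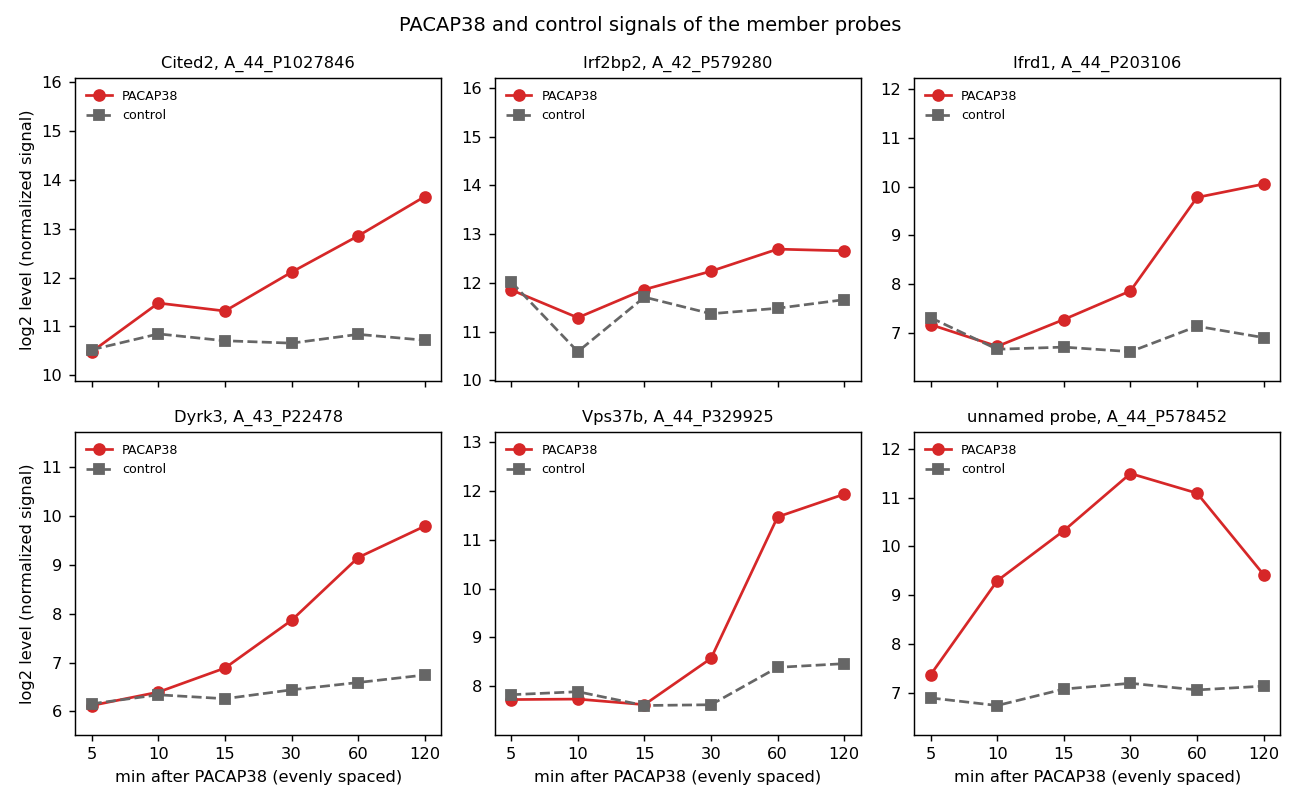
Normalized log2 signal of PACAP38 RNA (circles) and control RNA (squares) against minutes after PACAP38, mean of both dyes, for the brightest probe of each gene and the unnamed probe; every panel spans the same number of log2 units. The control lines vary by at most 1.81-fold, apart from Irf2bp2 with its dip at 10 min. The PACAP38 line of Vps37b climbs most between 5 and 120 min, by 18.5-fold, across slides.

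The unnamed probe A_44_P578452 belongs to the cluster sequence TC630385 and lies at chr12:33685682-33685741 on the plus strand of rn4, 24349 bases before the Vps37b probe A_44_P442966. Its course was early and passing. Its ratios were 1.56, 6.22, 9.27, 19.3, 16.5 and 4.80 on the Cy5 arrays and 1.24, 5.57, 9.72, 20.0, 16.3 and 4.95 on the Cy3 arrays. The pairs of 10, 15 and 30 min each lie above the pair before, those of 60 and 120 min each lie below, and the probe was counted from 10 min on. With normexp its mean ratio at 10 min was 1.75 with loess and 1.79 with median centring, below 2. At 120 min it was 1.95 and 1.79. From 30 to 60 min it rose in both settings, from 4.68 to 5.49 and from 4.54 to 5.53.

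At 30 min the mean ratio of the unnamed probe was 19.7 while that of the brightest Vps37b probe was 1.93, and at 120 min the order was turned, with 4.87 against 11.1. From 60 to 120 min, within 1 slide, the unnamed probe was multiplied by 0.291 and 0.304 on the Cy5 and Cy3 arrays, and the Vps37b probe by 1.34 and 1.28. RefSeq gives Vps37b a gene length of 28963 bases on GRCr8. Since the probe positions are on rn4, it was not determined whether the unnamed probe lies inside the gene, before it, or in a transcript of its own.

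The late climb can be set beside earlier ones. Ifrd1 is 1 of the TIS genes, the TPA-inducible sequences cloned together after phorbol ester treatment. Of the 6 others, 4 were counted as higher at every time point from 10 min on. Over all measured probes 0.158% were counted as higher at 10 min and 4.24% at 120 min. The 4 are Nr4a1, an orphan nuclear receptor, Egr1 and Fos, both transcription factors, and Btg2, an antiproliferative factor. At 10 min their mean ratios were 2.71 for Nr4a1, 15.3 for Egr1, 16.8 for Fos and 10.7 for Btg2, when Ifrd1 stood at 1.04. At 120 min they were 12.6, 9.72, 18.2 and 25.3, with Ifrd1 at 8.86. Egr1 had been at 60.7 and Btg2 at 45.8 at 30 min. Ptgs2, a prostaglandin synthase, was not measurable at any time, and Zfp36, an mRNA decay factor, had its control at background on both arrays at 60 min, which gives a lower bound of 1.96, and was not counted.

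**Figure D3:**
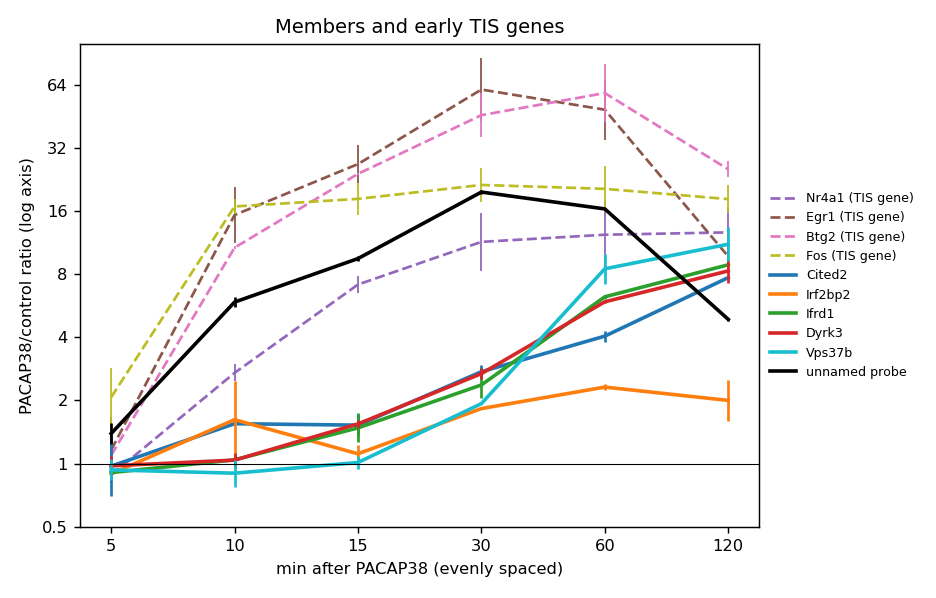
Mean PACAP38 over control (log axis) against minutes after PACAP38 for the members (solid lines, brightest probes) and 4 other TIS genes (dashed lines); bars join the values of both arrays. The 4 TIS genes and the unnamed probe are above 2 by 10 min, and Ifrd1, Dyrk3, Cited2 and Vps37b cross 2 between 15 and 60 min.

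Outside the TIS genes, the families and partners of the members mostly stayed uncounted, as did most measured probes of the array. Of 97 listed genes, 93 were on the array by name and 73 were measured at 120 min, where 5 were counted as higher, beside 4.24% of all probes, and 2 as lower, beside 3.37% of all probes. The TIS genes supplied 4 of these 5, and up to 60 min they were the only listed genes counted. Without them 1 gene was higher and 2 were lower at 120 min, so nothing is read from the counts of single lists below.

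Among the CITED family and the CBP, p300, HIF and AP-2 partners of Cited2, 6 of 12 genes were measured at 120 min and none was counted, with a median ratio of 0.869 against 0.982 over all probes. Cited1, of the same family, had a ratio of 1.80 and Cited4 was not well above background. Of the HIF target genes, 14 of 15 on the array were measured, with a median of 1.26. Ndrg1, a growth-arrest gene that hypoxia induces, was counted as higher at 120 min with 2.29 and 2.30 on its arrays. Vegfa, the vascular growth factor, read 2.44 and 1.87 and was not counted.

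In the Irf2bp family, Irf2bpl had a ratio of 0.615 at 120 min and Irf2bp1 was not measured then, with its control well above background on 1 of 2 arrays. None of the 7 measured genes of that list, which also holds Irf, NFAT and TEAD factors, was counted, with a median of 0.615. In the list of the Ifrd family with Sin3 and histone deacetylase partners, 10 of 10 genes were measured. Sin3a, the scaffold of the Sin3 co-repressor, was counted as lower, with 0.389 and 0.429 on its arrays and a mean of 0.408. Neither Sin3a nor Dyrk2, the other listed gene counted as lower, was counted with normexp and loess or median centring. Ifrd2 had 0.67 and was not counted, and Hdac5 had 2.18 and was not counted.

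Of the DYRK, HIPK and CLK kinases, 9 of 12 were measured at 120 min and none was higher. Dyrk2 was counted as lower on its brightest probe, with 0.499 and 0.402 on the arrays, while its other measured probes read 0.952 and 0.558 and were not counted. Dyrk1a had 0.77. Dyrk1b was not measured at that time, with its control well above background on 1 of 2 arrays, and Dyrk4 was at background on both arrays. The splicing-factor kinases Clk1 and Clk4 read 2.09 and 2.06 and were not counted. The median of this list was 0.979, when Dyrk3 stood at 8.29.

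For Vps37b, none of the other measured ESCRT-I subunits was counted at 60 or 120 min. Over all measured probes 1.79% and 4.24% were counted as higher then, and 0.782% and 3.37% as lower. Nothing is read from counts in lists this small. Of 7 on the array, 6 were measured at 60 and at 120 min, and the median ratio was 0.993 and 1.12. The Vps37b paralogs Vps37a and Vps37c had 1.19 and 1.02 at 120 min. Among 17 measured genes of the other ESCRT complexes, none was counted at 60 or 120 min, with medians of 0.959 and 1.05.

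Dyrk3 and Vps37b had other probes nearby. Within 100 kb of a member probe lay 14 other probes, 5 around Dyrk3, 9 around Vps37b and 0 around Cited2. At 60 and 120 min 2 of the 11 measured ones were counted as higher, beside 1.79% and 4.24% of all measured probes. Both lie at 1 place near Dyrk3, about 84 kb away, so nothing is read from this count. The Mapkapk2 probe A_42_P647072, for the p38-activated kinase MK2, was 83845 bases from the Dyrk3 probe and read 2.42 and 2.65 at 60 min. At 120 min it had climbed to 6.52 and 5.56. At 30 min it read 1.09 and 1.06, when Dyrk3 read 2.84 and 2.53. The second, on the EST BQ209772, lies on the opposite strand a short way from it and read 7.24 and 6.07 at 120 min. On the other side of Dyrk3, 27609 and 32211 bases away, the Eif2d probes, for a translation initiation factor, read 1.36 and 1.28 at 120 min.

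Around Vps37b none of the 7 measured probes was counted, and their ratios at 120 min ran from 0.953 to 1.47. The nearest on one side was Hip1r, which codes for a clathrin and actin adaptor, 2679 bases away on the minus strand, with 1.47. On the other side the nearest was the ABC transporter gene Abcb9, 29945 bases before the unnamed probe, with 1.03.

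**Figure D4:**
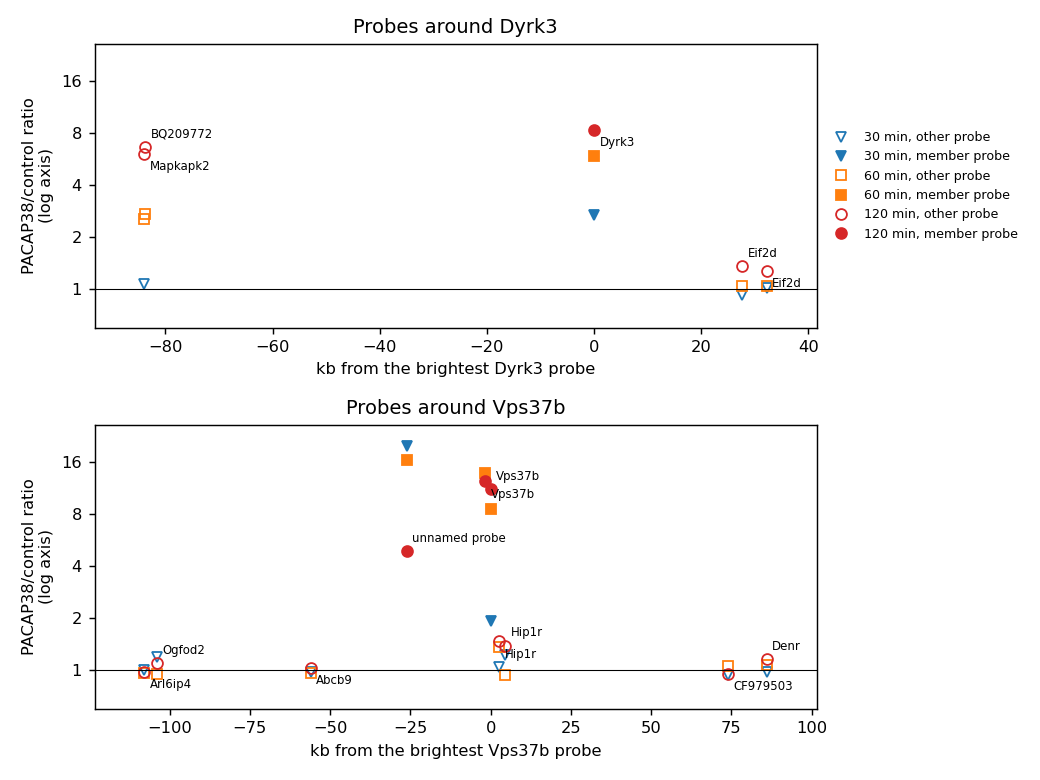
PACAP38 over control (log axis) at 30, 60 and 120 min for measured probes around Dyrk3 and Vps37b, against distance in kb from the brightest probe of the gene; filled symbols are members and open symbols other probes, named at their 120 min value. At 120 min the neighbours of Vps37b lie between 0.953 and 1.47, and near Dyrk3 the Mapkapk2 and BQ209772 probes reach 6.02 and 6.63. The members were chosen by their ratios, so their distance from the neighbours is not a result.

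Across the array, the closest time courses were named by the root mean square difference of log2 ratios over the 6 time points, among 8751 genes. Ifrd1 and Dyrk3 were each nearest to the other, at 0.103. Next to both came Emd, which codes for the nuclear envelope protein emerin, at 0.142 from Ifrd1 and 0.107 from Dyrk3, and Dusp5, a nuclear phosphatase of ERK, at 0.206 and 0.183. Emd had a ratio of 8.97 and Dusp5 of 6.69 at 120 min.

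Cited2 was nearest to Ppp1r15a, a phosphatase subunit of the stress response, at 0.251, to Cebpb, a leucine zipper transcription factor, at 0.285, and to Dusp5 at 0.310. Vps37b was nearest to Ypel4 at 0.216, to the phosphatase gene Ptp4a1 at 0.237 and to Coq10b, a coenzyme Q binding protein, at 0.283. Those 3 read 2.01, 2.26 and 2.33 at 30 min and 11.9, 11.1 and 8.90 at 120 min. Irf2bp2 was nearest to Zfp36l2, an mRNA decay factor, at 0.206, and Gas1 was also among its closest, at 0.297. The unnamed probe was far from the 5 genes, with 1.98 to the nearest of them, Cited2, and its closest genes were the immediate early genes Ier2 at 0.689, Junb at 0.743 and Nr4a1 at 0.870.

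The sizes of the ratios changed when background correction and dye normalization were replaced together. With normexp correction and loess, the ratio at 120 min was 6.95 for Vps37b, 6.63 for Cited2, 3.42 for Dyrk3, 3.14 for Ifrd1 and 1.88 for Irf2bp2, so the order of the genes changed and Cited2 stood above Ifrd1 and Dyrk3. All 5 were above 1. With median centring in place of loess, the highest ratios of Ifrd1 and Vps37b fell at 60 min. The unnamed probe had its highest ratio at 60 min in place of 30 min under both, with 5.49 there and 1.95 at 120 min with loess, and 5.53 and 1.79 with median centring. The dim Vps37b probe A_44_P442966 had 1.83 at 60 min and 1.77 at 120 min with loess, and 1.84 and 1.70 with median centring.

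**Figure D5:**
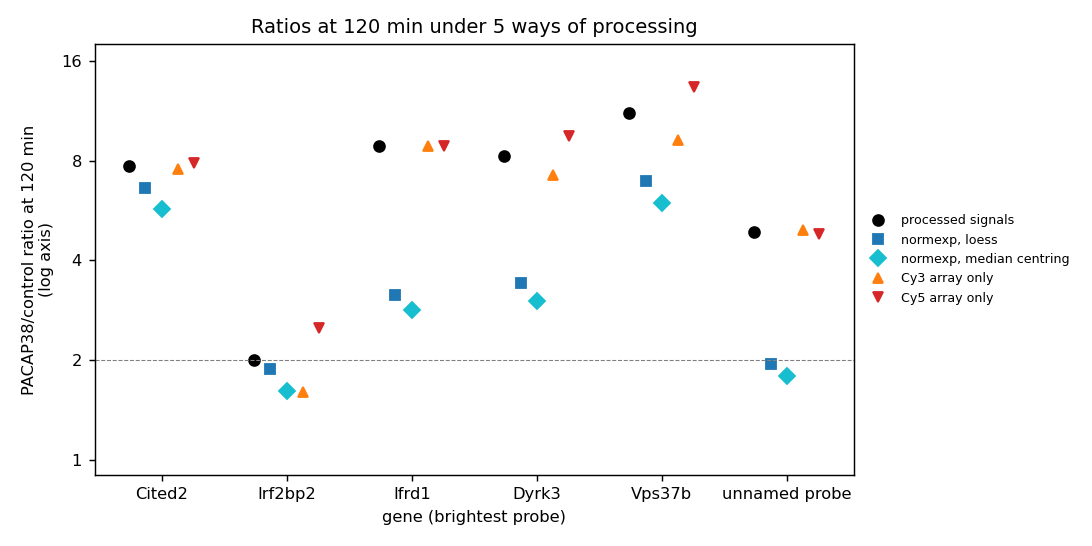
PACAP38 over control at 120 min (log axis, dashed line at 2) for the brightest probe of each gene and the unnamed probe, from the processed signals, from 2 other normalizations and from each array alone. The ratios of Ifrd1 and Dyrk3 change from 8.86 and 8.29 to 3.14 and 3.42 with normexp and loess, and those of Cited2 from 7.70 to 6.63.

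The markers of the cell line and of other cell types were read on the same arrays. Of 10 chromaffin markers, 9 were on the array by name, and these, among them Th and Dbh of catecholamine synthesis, were all measured at 120 min and none was counted. Of the fibroblast markers 2 of 4 were measured at 120 min, Col1a1 at 1.16 and Col1a2 at 0.652, while Dcn was not measured and Lum was at background. Of the glia markers, 2 of 3 were measured, with a median ratio of 0.786, and Gfap was at background. Of the macrophage markers Cd68 was measured, at 1.94, and Aif1 and Ptprc were at background. None of these was counted. At 120 min 4.24% of all measured probes were counted as higher and 3.37% as lower, so nothing is read from these counts.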

How the data were processed

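RNA pools of PC12 cells with and without PACAP38 were compared on 12 arrays of 2 colours, 4 to a slide on 3 slides. The authors scanned the arrays with Agilent Feature Extraction, version 11.0.1.1 per the labels and module version 12.0.3.1 per the file headers. The deposited processed intensity of each colour is background-subtracted and dye-normalized, and the deposited mean and background intensity values are not. The deposited p-value of a spot is that of the authors' software for its log ratio, and the deposited table holds the log10 ratio of Cy5 to Cy3, which matched the processed signals on 100% of values within 0.001 log2. Column medians of that table lay between -0.0106 and 0.0421 on the log10 scale. The number of unused sample columns was 0.

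From these, log2 ratios of PACAP38 over control were computed, turned by the dye in the sample titles, without control spots and outlier-flagged spots (197 to 267 per array). No spot was saturated, and the control RNA was well above background on 38.4 to 49.6% of an array's non-control spots. A probe was measured when, on each of both arrays, at least 1 RNA was well above background. It was counted as higher at a fold of at least 2, or lower at 0.5 or less, with a spot p-value below 0.01 on both arrays; these p-values compare spots of the same pools and served as a limit only. Channel levels used limma 3.58.1 Aquantile in R 4.3.3, and other steps Python 3.11.15. The turning and counting steps were run on simulated data. There the p-values followed the fold and every spot was well above background, so neither the p limit nor dim spots were tested. A gene is its brightest probe. Named are all member probes, listed relatives (families, any gene counted), the 3 nearest time courses per member and counted probes within 100 kb. Of the 41012 probes, 19277 matched RefSeq, and 1599 names were updated. Of the nearest time courses, the probe sequences and the marker genes, some are not reported here. The members and lists were chosen with earlier results of these data known. Alternatives were normexp (offset 50) with loess or median centring, a 75th percentile scaling, the deposited ratios, each array alone, flagged spots kept, another fold limit, probe means, a Pearson ranking and a 50 kb window. Depth has no count on arrays, where the number of arrays limits precision.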

Additional observations from a re-analysis of the deposited data

Results flagged for a closer look

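In 3 member probes both arrays lay below 1 at 5 min and above 1 at 120 min, so that the direction of the ratio differed between these times, and the difference was not tested. The Irf2bp2 probe A_42_P579280 had a mean ratio of 0.893 at 5 min and 2.001 at 120 min, the Irf2bp2 probe A_44_P793591 had 0.945 and 3.79, and the Ifrd1 probe A_44_P203106 had 0.906 and 8.86. With median centring the mean ratio at 5 min was 1.02 for A_44_P793591 and 1.0001 for A_44_P203106, so that only A_42_P579280, at 0.959, lay below 1. No ratio of these probes at 5 min met the limit for a lower count.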

How the results depend on the processing

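The ratio at 120 min was above 1 for each of the 5 genes in every setting run, while ratios close to 1 at 5 and 10 min fell on either side of it between settings. With normexp and loess, the ratio at 120 min was 6.63 for Cited2, 3.14 for Ifrd1, 3.42 for Dyrk3 and 6.95 for Vps37b, and with normexp and median centring it was 5.72, 2.83, 3.02 and 5.97. The mean over the probes of a gene gave 5.89 for Cited2, 2.76 for Irf2bp2 and 7.62 for Ifrd1. Over the 2 single arrays, the ratio at 120 min ran from 7.55 to 7.85 for Cited2, from 1.60 to 2.50 for Irf2bp2, from 8.85 to 8.88 for Ifrd1, from 7.24 to 9.49 for Dyrk3 and from 9.23 to 13.4 for Vps37b.

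Of the 5 genes, 2 rose at every step, and 1 to 3 on a single array; from 15 min on 4 did, a count chosen after seeing the data, with 4 to 5 on a single array and 2 with median centring. Member probes counted as higher at 10 min numbered 1, and 0 with loess or median centring, 3 at a fold limit of 1.5 and 1 to 2 on a single array. At 15 min they numbered 1, with 2 at a limit of 1.5 and 1 to 2 on a single array. At 30 min they numbered 4, with 2 under loess or median centring, 9 at a limit of 1.5 and 6 on either single array. At 60 and 120 min they numbered 11 and 10, with 6 and 4 under median centring and 11 and 10 to 11 on a single array. At 5 min they numbered 0 on both and on either array.

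Listed genes counted at 120 min numbered 5 higher and 2 lower; a limit of 1.5 gave 12 and 7, single arrays 7 to 8 and 2 to 4, and loess and median centring 4 higher and 0 lower each. Nearby probes counted as higher numbered 2, with 1 under loess and median centring, 0 within 50 kb and 2 on either array, and none was lower. Of the 15 nearest genes of the 5 members, 6 were shared with a ranking by Pearson correlation and 4 with loess. Scaling by the 75th percentile was run for the channel levels only, and turned none of their directions. The cause was not tested. Normexp added an offset of 50 to both signals, which draws the ratio of a dim spot toward 1 by construction.

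Each ratio compares PACAP38 and control RNA on the same array. No pairing between replicate cultures was possible, because the labels give no replicate numbers and each pair of dye-swapped arrays was made from 1 pair of pools. Each time point is 1 replicate, so the spread between cultures is unknown.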
